A study of Homo sapiens with 6 samples.

Results

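The levels of 9 genes that breast cancer studies use as epithelial surface antigens or stemness markers were followed: *EPCAM*, *CD24*, *CD44*, *MUC1*, *ALDH1A3*, *PROM1*, *SOX4*, *SOX9* and *KLF4*. They were found by gene symbol in a table of 61806 genes, in which all 9 are listed. A total of 8 had enough counts to be tested among 16110 genes, and *PROM1* did not. The cells were MDA-MB-231, an established human triple-negative breast cancer line, meaning that the estrogen receptor, the progesterone receptor and HER2 amplification are lacking. RNA was sequenced from 3 stable lines, with 2 libraries each, titled shNC, shHMGA2-1 and shHMGA2-2. By title, shNC is the control and the others carry different short hairpin RNAs against *HMGA2*. Library names of the control say wild type and those of shHMGA2-1 carry SH2, so these assignments rest on the titles. No other treatment, time point or agent is given in the labels for these samples. The study's methods describe lentiviral infection, puromycin selection and dilution of the screened cells to clones, so a hairpin and the clone that carries it cannot be told apart here. Nothing states that the 2 libraries of a line came from separate cultures, so p-values measure the spread between these libraries, which may be technical.

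As background, EpCAM is a homophilic adhesion protein of epithelia, CD24 is a small glycosylated surface protein that binds P-selectin and Siglec-10, and MUC1 is a transmembrane mucin of the apical surface. CD44 is the main hyaluronan receptor, and breast cancer cells that carry much CD44 and little CD24 are widely sorted as stem-like. ALDH1A3 makes retinoic acid from retinal and contributes to the aldehyde dehydrogenase activity used to sort such cells, PROM1 (CD133) is a surface marker of progenitors, and SOX4, SOX9 and KLF4 are transcription factors of progenitor and epithelial programmes. HMGA2, the knocked-down gene, is an architectural chromatin protein whose AT hooks bind AT-rich DNA.

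The libraries held 16461178 to 17167293 counts, and mitochondrial genes took 6.74% to 7.86% of them. *HMGA2* stood at 8.31 and 8.44 FPKM (counts scaled by exonic length and library total) in the shNC libraries, 3.32 and 3.83 in those of shHMGA2-1 and 1.75 and 1.93 in those of shHMGA2-2, so the targeted gene followed its labels in every library. Its log2 fold change against shNC was -1.29 in shHMGA2-1 and -2.31 in shHMGA2-2. The labelled cell type was checked against fixed markers. Of the mesenchymal markers, the vimentin gene *VIM* lay between 411 and 432 FPKM, whereas *CDH2* did not exceed 0.10 and *TWIST1* was at 0. Of the epithelial markers, the keratin genes *KRT18* and *KRT8* were plainly expressed, at 28.26 to 37.36 and 10.67 to 29.94 FPKM. *CDH1* (E-cadherin), *GRHL2* and *ELF3* did not exceed 0.04, 0.02 and 0.07 FPKM, and *OVOL1* was at 0. *ESR1* and *PGR* did not exceed 0.05 and 0.01 FPKM. *ERBB2*, the HER2 gene, was expressed, at 6.43 to 10.77 FPKM. Its log2 fold change against shNC was 0.46 in shHMGA2-1 and 0.45 in shHMGA2-2. Summed FPKM of 5 leukocyte markers was at most 0.37, that of 3 endothelial markers at most 0.13 and that of 3 erythroid markers 0 in every library.

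Members were called past the test at an adjusted p under 0.05 (edgeR quasi-likelihood test, Benjamini-Hochberg adjustment over all 16110 genes) and called differentially expressed genes (DEGs) where they also differed by at least 2-fold. In shHMGA2-1 against shNC, 8 of the 8 tested members passed the test, against 33.5% of all tested genes. *EPCAM*, *CD24*, *CD44*, *MUC1*, *ALDH1A3* and *SOX4* were higher, and *SOX9* and *KLF4* were lower. The DEGs among them numbered 3 (*CD24*, *MUC1* and *ALDH1A3*), against 8.49% of all genes. In shHMGA2-2 against shNC, 6 of 8 passed, against 58.8% of all genes, so the member count is read beside a line in which most genes passed. *CD44*, *MUC1*, *ALDH1A3* and *SOX9* were higher there, and *CD24* and *SOX4* were lower. The DEGs were *MUC1*, *SOX9* and *SOX4*, 3 of 8, against 21.3% of all genes. *CD44*, *MUC1* and *ALDH1A3* rose in both lines, *CD24*, *SOX4* and *SOX9* moved in opposite directions, and *EPCAM* and *KLF4* passed in shHMGA2-1 and not in shHMGA2-2. The shNC libraries served both comparisons. The members were chosen with earlier results of these data known, so counts and shares are set side by side and were not tested against each other.

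**Figure D1:**
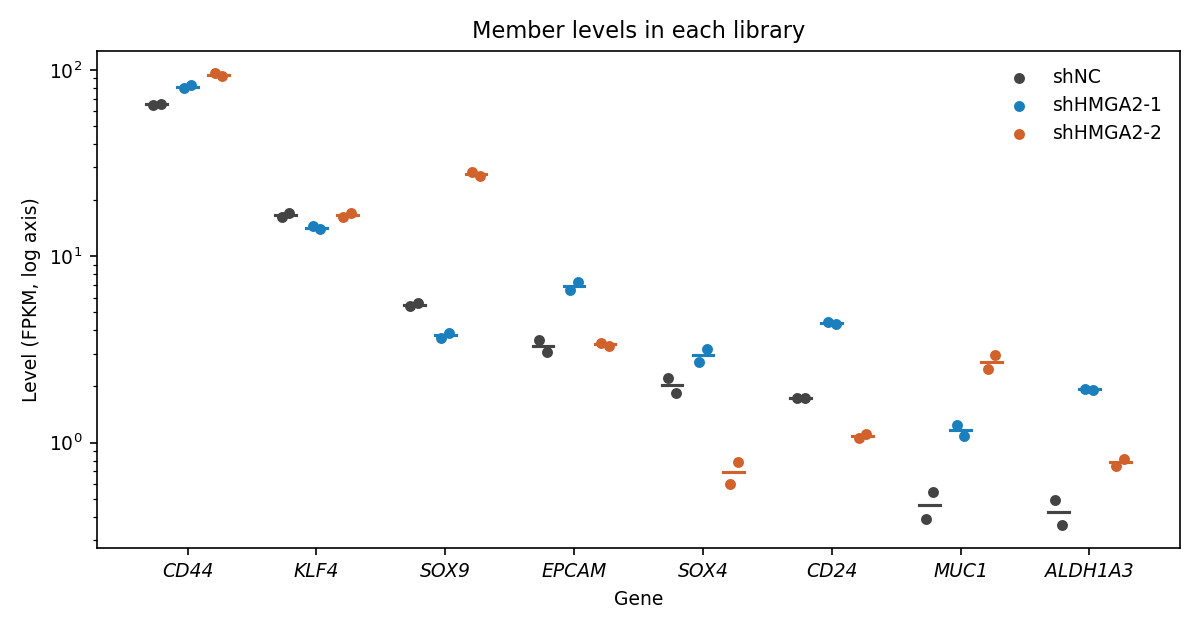
FPKM of the 8 tested members (x axis) in each library on a log axis, with 1 point per library, a short bar for the mean of the 2 libraries of a line, and shNC in grey, shHMGA2-1 in blue and shHMGA2-2 in orange. CD44 is the highest member in all 3 lines, SOX9 stands at 26.91 and 28.42 in shHMGA2-2 against at most 5.62 in the other lines, and CD24 is highest in shHMGA2-1 and lowest in shHMGA2-2; PROM1, with at most 2 counts in a library, is not drawn.

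The direct comparison of shHMGA2-2 with shHMGA2-1 tested whether the lines differed from each other. It found 7 of 8 members past the test, against 50.2% of all genes, and 6 of 8 DEGs, against 15.1%. *SOX9*, *MUC1* and *CD44* were higher in shHMGA2-2, and *EPCAM*, *CD24*, *ALDH1A3* and *SOX4* were higher in shHMGA2-1. *KLF4* had a log2 fold change of 0.17 (95% interval 0 to 0.35, edgeR adjusted p = 0.0904). When both shHMGA2 lines were pooled against shNC, 0 of 8 members passed the edgeR test, against 5.26% of all genes. Without adjustment, 3 members (*CD44*, *MUC1* and *ALDH1A3*) had a p under 0.05 in that comparison. DESeq2 gave adjusted p under 0.05 for 2 members, *MUC1* and *ALDH1A3*, and limma on log2 FPKM for 0. The pooled fit takes the distance between the shHMGA2 lines as spread, with a biological coefficient of variation of 0.291 in place of 0.0583 within lines.

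**Figure D2:**
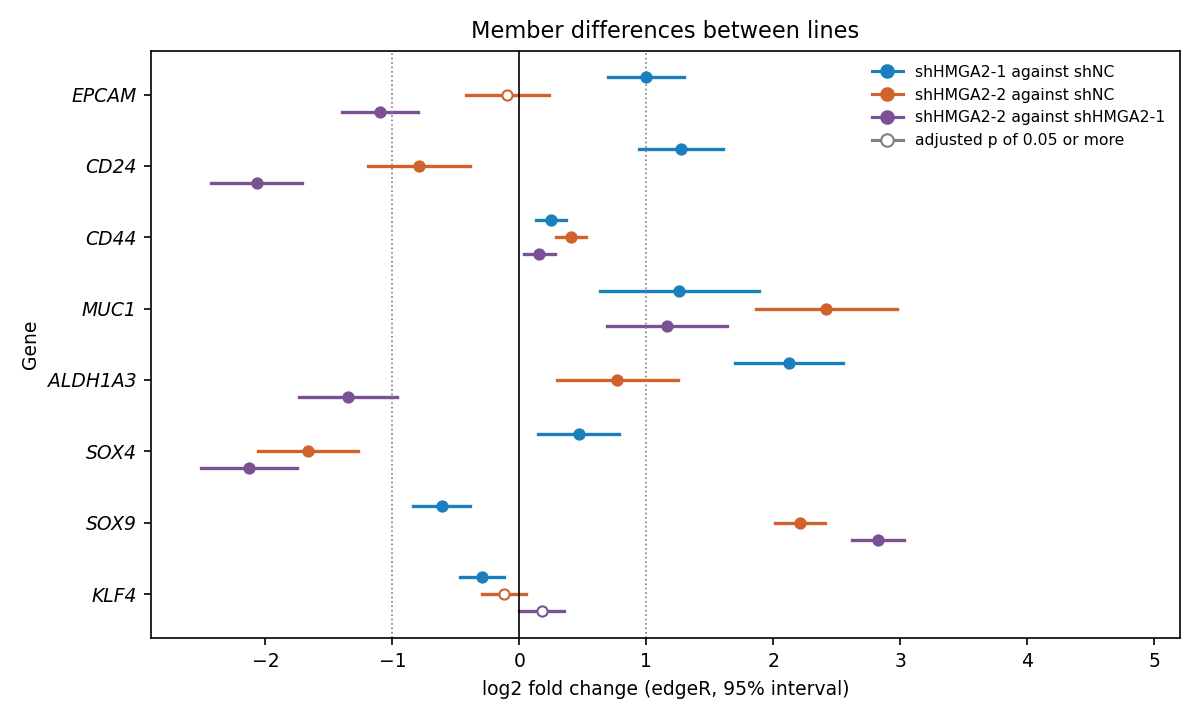
log2 fold changes of the 8 tested members (x axis, edgeR) with their 95% intervals, for shHMGA2-1 against shNC in blue, shHMGA2-2 against shNC in orange and shHMGA2-2 against shHMGA2-1 in purple; filled points had an adjusted p under 0.05, open points did not, and dotted lines mark a 2-fold difference. CD24 and SOX4 lie above 0 in shHMGA2-1 and below 0 in shHMGA2-2, SOX9 the other way round, and the CD44 and KLF4 values all lie within 0.41 of 0.

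Of the epithelial surface antigens, *EPCAM* (ENSG00000119888, GRCh38 chr2:47345158-47387601, plus strand) stood at 3.54 and 3.08 FPKM in shNC, against 6.57 and 7.26 in shHMGA2-1 and against 3.42 and 3.30 in shHMGA2-2. Both shHMGA2-1 libraries lay above all others, while the shHMGA2-2 values fell inside the range of shNC. The counts behind them were 127 to 146 in the shNC libraries, 274 and 302 in those of shHMGA2-1 and 133 and 137 in those of shHMGA2-2. *EPCAM* rose 1.998-fold in shHMGA2-1 (log2 fold change 1.00, SE 0.14, edgeR adjusted p = 6.32e-06), just under the 2-fold limit of a DEG. In shHMGA2-2 its log2 fold change was -0.10 (SE 0.16, 95% interval -0.42 to 0.23, edgeR adjusted p = 0.625), so a rise of the size seen in shHMGA2-1 lay outside the interval. The sign of that small value turned to 0.02 under upper quartile scaling, which moved the median of all genes in this comparison by 0.115, and under limma on FPKM. Between the shHMGA2 lines *EPCAM* was 2.14-fold lower in shHMGA2-2 (adjusted p = 7.59e-07).

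*CD24* (ENSG00000272398, chr6:106969831-106975627, minus strand) gave 1.73 and 1.73 FPKM in shNC, against 4.42 and 4.34 in shHMGA2-1 and against 1.06 and 1.11 in shHMGA2-2. No library of one line overlapped another line, and shNC lay in the middle. *CD24* rose 2.42-fold in shHMGA2-1 (log2 fold change 1.27, SE 0.16, edgeR adjusted p = 8.14e-07). It fell by 0.79 on the log2 scale in shHMGA2-2 (SE 0.20, edgeR adjusted p = 0.00116), and the lines themselves differed 4.19-fold. The shHMGA2-2 counts were 54 and 57, against 91 in each control library. Processed copies of *CD24* exist elsewhere in the genome, and the 3 that carry a symbol held at most 4 counts in any library, while how reads shared with copies were assigned is uncertain.

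*MUC1* (ENSG00000185499, chr1:155185824-155192916, minus strand) was listed at 0.39 and 0.54 FPKM in the shNC libraries, 1.24 and 1.09 in those of shHMGA2-1 and 2.48 and 2.94 in those of shHMGA2-2. The 3 lines did not overlap. Against shNC the mucin rose 2.38-fold in shHMGA2-1 (log2 fold change 1.25, SE 0.30, edgeR adjusted p = 0.00222) and 5.32-fold in shHMGA2-2 (2.41, SE 0.27, adjusted p = 3.65e-08). It was thus a DEG in both lines, and it was 2.23-fold higher in shHMGA2-2 than in shHMGA2-1 (adjusted p = 0.000159). The control counts were only 16 and 22, and the intervals were wide (0.63 to 1.88 and 1.86 to 2.98 on the log2 scale). On the log2(FPKM + 1) scale, which understates changes of genes this low, the differences were 0.56 and 1.34.

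The 250 bases upstream of the start are shown for these 2 antigens, because *MUC1* and *CD24* were called in both lines, one in the same and the other in opposite directions, and because HMGA2 binds AT-rich DNA. The sequences are from the RefSeq promoter table on GRCh38.p14, written 5′ to 3′ on the gene's strand, with runs of at least 6 A or T bases in capitals. They are chr6:106975628-106975877 for *CD24* and chr1:155192916-155193165 for *MUC1*, both on the minus strand; the last *MUC1* base is the first base of the gene in the deposited table.
CD24: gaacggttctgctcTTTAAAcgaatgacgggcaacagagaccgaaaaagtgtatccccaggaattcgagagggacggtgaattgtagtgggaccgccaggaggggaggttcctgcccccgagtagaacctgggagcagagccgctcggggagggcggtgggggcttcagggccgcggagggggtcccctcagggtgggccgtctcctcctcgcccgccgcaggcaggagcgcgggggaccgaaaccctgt
MUC1: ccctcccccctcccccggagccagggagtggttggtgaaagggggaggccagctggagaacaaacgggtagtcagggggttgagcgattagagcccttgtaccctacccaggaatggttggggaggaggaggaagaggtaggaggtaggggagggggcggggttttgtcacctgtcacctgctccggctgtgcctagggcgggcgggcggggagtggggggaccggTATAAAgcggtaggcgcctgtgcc
Each window held a single such run, of 6 bases, and 58.7% of the 35116 promoters of that length in the table held at least 1. A and T made up 34.4% of the *CD24* window and 34.0% of the *MUC1* window, below the median of 42.0%. Of the other members, 5 had an entry: A and T made up 37.6% for *CD44*, 17.6% for *ALDH1A3*, 41.2% for *PROM1*, 51.2% for *SOX4* and 30.8% for *KLF4*. The starts used lay 289, 2117, 355 and 713 bases inside the deposited gene for *CD44*, *ALDH1A3*, *PROM1* and *KLF4*. The *CD44*, *ALDH1A3*, *PROM1* and *SOX4* windows overlapped untranslated sequence of their own gene. *CD24*, *MUC1* and *PROM1* had 3, 2 and 4 windows, and the nearest to the deposited start was used. The *SOX4* window held the longest run (9 bases) and the *ALDH1A3* window none of 6 or more. ACAAT, the core letters bound by SOX proteins, was found on either strand in the *CD24* window only among these 7, and in 24.6% of all promoters. CACCC, the core letters bound by KLF proteins, was found in the *CD24*, *CD44* and *ALDH1A3* windows and in 54.7% of all promoters. These letters are a description of the windows, and binding was not measured.

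*CD44* (ENSG00000026508, chr11:35138882-35232402, plus strand) was the highest member in every line, at 64.86 and 65.97 FPKM in shNC, against 79.78 and 82.88 in shHMGA2-1 and against 95.84 and 92.56 in shHMGA2-2. The lines did not overlap and kept that order. It exceeded 96.9% of tested genes in shNC and 98.1% in shHMGA2-2. With 11002 to 15764 counts per library, small differences passed: the receptor was 1.19-fold higher in shHMGA2-1 (log2 fold change 0.25, SE 0.06, edgeR adjusted p = 0.00161) and 1.33-fold higher in shHMGA2-2 (0.41, SE 0.06, adjusted p = 1.73e-06). The first of these calls was lost without shNC replicate 1 (edgeR adjusted p = 0.0616). The 1.12-fold difference between the shHMGA2 lines (adjusted p = 0.0270) was lost with a replicate block (adjusted p = 0.0655) and without either shNC library, shHMGA2-1 replicate 1 or shHMGA2-2 replicate 1 (adjusted p = 0.0711 to 0.219). GENCODE lists 26 protein-coding transcripts of *CD44*, and a gene count does not tell its standard from its variant isoforms. The antisense gene *CD44-AS1* held 13 and 10 counts in the control libraries and 65 and 73 in shHMGA2-2, at most 0.476% of the *CD44* count; the strand setting of the counting is not given in the sources used here, so reads of the pair cannot be told apart.

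The balance of CD44 over CD24, the pair used to sort stem-like breast cancer cells, was computed per library from FPKM. The ratio was 37.5 and 38.1 in the shNC libraries, 18.1 and 19.1 in those of shHMGA2-1 and 90.4 and 83.4 in those of shHMGA2-2. The shHMGA2-1 libraries lay below shNC and the shHMGA2-2 libraries above it, with means of 37.8 ± 0.453, 18.6 ± 0.743 and 86.9 ± 4.97 (SD, n = 2). *CD44* was higher than in shNC in both lines, whereas *CD24* was higher in one and lower in the other. The ratio of *CD44* to *EPCAM* went the same way, at 18.3 and 21.4 in shNC. It was 12.1 and 11.4 in shHMGA2-1 and 28.02 and 28.05 in shHMGA2-2. Both ratios share *CD44*, so they are not independent. Unlike *CD24*, *EPCAM* did not pass the test in shHMGA2-2 (log2 fold change -0.10, edgeR adjusted p = 0.625). With 2 libraries against 2, an exact permutation test cannot give a two-sided p below 0.333, so no test of the ratios was made. These are RNA levels of bulk cultures: fewer cells of a type and less RNA per cell cannot be told apart, and surface protein was not measured.

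**Figure D3:**
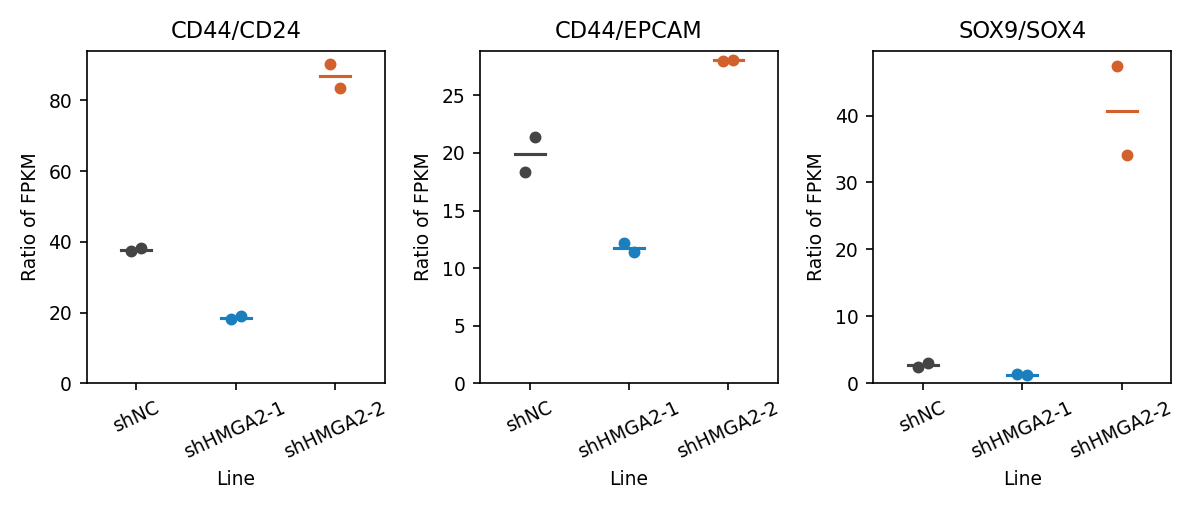
Ratios of FPKM (y axis, linear from 0) for CD44 over CD24, CD44 over EPCAM and SOX9 over SOX4 in each library, with 1 point per library and a bar for the mean of the 2 libraries of a line. In all 3 panels the shHMGA2-1 libraries lie below and the shHMGA2-2 libraries above the 2 shNC libraries.

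Of the stem-like enzyme and surface markers, *ALDH1A3* (ENSG00000184254, chr15:100877714-100916626, plus strand) was at 0.49 and 0.36 FPKM in the shNC libraries, 1.95 and 1.92 in those of shHMGA2-1 and 0.75 and 0.82 in those of shHMGA2-2. All 4 shHMGA2 libraries lay above both controls, and the shHMGA2-1 pair was highest. The enzyme rose 4.34-fold in shHMGA2-1, the largest rise of a member there (log2 fold change 2.12, SE 0.21, edgeR adjusted p = 1.12e-08). In shHMGA2-2 it was 1.71-fold higher (0.77, SE 0.23, edgeR adjusted p = 0.00622), a call lost with DESeq2 (adjusted p = 0.0633) and without shNC replicate 2 (edgeR adjusted p = 0.0890). The level in shHMGA2-2 was 2.55-fold lower than in shHMGA2-1 (adjusted p = 1.35e-06). *ALDH1A3-AS1*, which overlaps it on the other strand, held 7 to 16 counts per library, up to 30.3% of the *ALDH1A3* count, so part of the low control counts (44 and 33) is uncertain.

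*PROM1* (ENSG00000007062, chr4:15963076-16084378, minus strand) was not counted in any shNC or shHMGA2-2 library (0 counts in each of the 4), and the shHMGA2-1 libraries held 1 and 2 counts. Every value was under the floor of 3 counts that a count of 0 allows (0.175 to 0.182 CPM, counting error only), and no difference was detectable at this depth.

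Among the transcription factors, *SOX9* (ENSG00000125398, chr17:72121020-72126416, plus strand) showed the largest difference between lines of all members. It stood at 5.38 and 5.62 FPKM in shNC, against 3.65 and 3.88 in shHMGA2-1 and against 28.42 and 26.91 in shHMGA2-2. The lines did not overlap, and the shHMGA2-2 libraries stood well apart. In shHMGA2-1 *SOX9* fell by 0.61 on the log2 scale (SE 0.11, edgeR adjusted p = 9.61e-05). In shHMGA2-2 it rose 4.63-fold (2.21, SE 0.10, edgeR adjusted p = 5.94e-16), and it was 7.08-fold higher there than in shHMGA2-1. The gene moved from above 60.1% of tested genes in shNC to above 90.3% in shHMGA2-2. *SOX9-AS1*, on the opposite strand, held 1 count in each control library and 16 and 23 in shHMGA2-2, at most 1.31% of the *SOX9* count.

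*SOX4* (ENSG00000124766, chr6:21593751-21598619, plus strand), a related factor of the SOXC group, gave 2.21 and 1.85 FPKM in the shNC libraries, 2.70 and 3.17 in those of shHMGA2-1 and 0.60 and 0.79 in those of shHMGA2-2. Its lines did not overlap either, but the order was the reverse of that of *SOX9*. *SOX4* fell by 1.66 on the log2 scale in shHMGA2-2 (SE 0.19, edgeR adjusted p = 5.70e-08), which is 3.17-fold lower. The shHMGA2-2 counts behind this were low, at 48 and 64, against 183 and 153 in the control libraries. The rise in shHMGA2-1 was 1.38-fold (0.47, SE 0.16, edgeR adjusted p = 0.0227). That call was lost with DESeq2 (adjusted p = 0.194), with limma (adjusted p = 0.0533 and 0.0896 with pseudocounts of 1 and 0.1), and without shNC replicate 2 (adjusted p = 0.239) or shHMGA2-1 replicate 2 (adjusted p = 0.162). Between the shHMGA2 lines *SOX4* differed 4.38-fold. Per library, the ratio of *SOX9* to *SOX4* FPKM was 2.43 and 3.04 in shNC, against 1.35 and 1.22 in shHMGA2-1 and against 47.4 and 34.1 in shHMGA2-2.

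*KLF4* (ENSG00000136826, chr9:107484852-107490482, minus strand) varied least of the factors, at 16.31 and 17.09 FPKM in the shNC libraries, 14.55 and 13.94 in those of shHMGA2-1 and 16.29 and 17.10 in those of shHMGA2-2. The shHMGA2-1 libraries were lower than the rest, and the other lines covered the same range. It was 1.23-fold lower in shHMGA2-1 (log2 fold change -0.29, SE 0.08, edgeR adjusted p = 0.00858), a call lost without shNC replicate 2 (adjusted p = 0.131). In shHMGA2-2 the log2 fold change was -0.12 (95% interval -0.29 to 0.05, edgeR adjusted p = 0.225). FPKM uses plain library totals, and the edgeR scaling factors were 0.958 to 0.959 in shNC and 1.03 to 1.05 in shHMGA2-2, so the same FPKM gives a slightly negative fold change. The difference between the shHMGA2 lines, not called in the main test, passed under upper quartile scaling, with genes of mean FPKM of at least 1, and with limma (adjusted p = 0.0220 to 0.0482).

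Ranked by mean FPKM, the members fell in the order *CD44* (65.4), *KLF4* (16.7), *SOX9* (5.50), *EPCAM* (3.31), *SOX4* (2.03), *CD24* (1.73), *MUC1* (0.465) and *ALDH1A3* (0.425) in shNC, with *PROM1* last. *MUC1* and *ALDH1A3* overlapped there, and other neighbours did not. In shHMGA2-1 *EPCAM* (6.92) and *CD24* (4.38) took the places above *SOX9* (3.77), and *ALDH1A3* (1.94) stood above *MUC1* (1.17), with no overlap between neighbours. In shHMGA2-2 *SOX9* (27.7) stood above *KLF4* (16.7), and *MUC1* (2.71) above *CD24* (1.09), while *ALDH1A3* (0.785) and *SOX4* (0.695) overlapped. These orders rest on 2 libraries a line and were not tested.

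For each tested member, the genes with the nearest pattern were sought among 11099 genes by the root mean square difference of centred log2 CPM (counts scaled to library size) over the 6 libraries. *CRBN* (0.0242) and *CWC15* (0.0259) were nearest to *CD44*, and *FBXL5* (0.0245) and *DHX38* (0.0278) to *KLF4*. For *EPCAM* they were *ASB9* (0.0606) and *SDCCAG8* (0.0951), for *CD24* *SLCO4A1* (0.0968) and *LINC00452* (0.116), and for *MUC1* *STXBP2* (0.0870) and *ANGPTL2* (0.121). *SOX4* was nearest to *DNAJC22* (0.0585) and *CLEC2B* (0.104). The nearest to *SOX9* were *CASK* (0.149) and *CXCL1* (0.151), the chemokine, which went from 5.93 and 6.70 FPKM in shNC to 27.83 and 26.78 in shHMGA2-2. *ALDH1A3* had *OSR2* (0.168) and *EBF4* (0.229). The distances are not compared between members.

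Related genes were described by lists, beside median log2 fold changes over all tested genes of 0.01 in shHMGA2-1 and 0.03 in shHMGA2-2. Higher calls made up 15.8% and lower calls 17.7% of all tested genes in shHMGA2-1, and 29.5% and 29.2% in shHMGA2-2. Of 16 EpCAM partners and processing genes, 14 were tested. In shHMGA2-1 4 were higher and 3 lower, and in shHMGA2-2 6 were higher and 5 lower, with medians of -0.04 and 0.09. The tetraspanin gene *CD82* fell by 2.55 in shHMGA2-1 and rose by 1.71 in shHMGA2-2 on the log2 scale. *SPINT2*, a serine protease inhibitor, fell by 0.42 and 2.03, and *LEF1*, a partner of beta-catenin, fell by 2.12 in shHMGA2-2. *CTNNB1*, beta-catenin itself, stayed between 28.11 and 34.31 FPKM.

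Of 13 CD24 and MUC1 ligands and other transmembrane mucins, only 2 were tested, and 8 had at most 3 counts in every library. The lectin gene *LGALS3* lay between 17.01 and 22.26 FPKM and did not pass in either line. The other tested gene, *SIGLEC10*, was chosen for naming after its values were seen. This CD24 receptor had a count of 5 and of 1 in the control libraries, 6 and 8 in those of shHMGA2-1 and 24 and 28 in those of shHMGA2-2. It passed as higher in shHMGA2-2 (log2 fold change 2.99, SE 0.63, edgeR adjusted p = 0.000205) and gave an adjusted p of 0.289 in shHMGA2-1, so the list had 0 calls in shHMGA2-1 and 1 higher in shHMGA2-2 (medians 0.60 and 1.58 over 2 genes). No mucin of the list was tested. Of 18 genes of the CD44 ligand and cytoskeleton axis, 13 were tested, with 1 higher and 4 lower in shHMGA2-1 and 3 higher and 6 lower in shHMGA2-2 (medians -0.04 and 0.03). *HAS2*, which makes the CD44 ligand hyaluronan, stood at 2.15 and 2.15 FPKM in the shNC libraries, 0.11 and 0.03 in those of shHMGA2-1 and 1.48 and 1.45 in those of shHMGA2-2. It fell by 5.00 on the log2 scale in shHMGA2-1 (SE 0.33, edgeR adjusted p = 1.08e-11) and by 0.68 in shHMGA2-2. *MSN* (moesin), which links CD44 to actin, fell by 0.71 and 1.10, while its relative *EZR* (ezrin) rose 0.88 in shHMGA2-2. *CEMIP2*, a surface protein of hyaluronan turnover, fell by 0.32 and 1.09, and the proteoglycan gene *SRGN* fell by 0.84 in shHMGA2-2. *ESRP2*, a splicing regulator of epithelial isoforms including those of CD44, rose 2.67 in shHMGA2-2, from 0.26 and 0.18 to 1.36 and 1.72 FPKM.

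**Figure D4:**
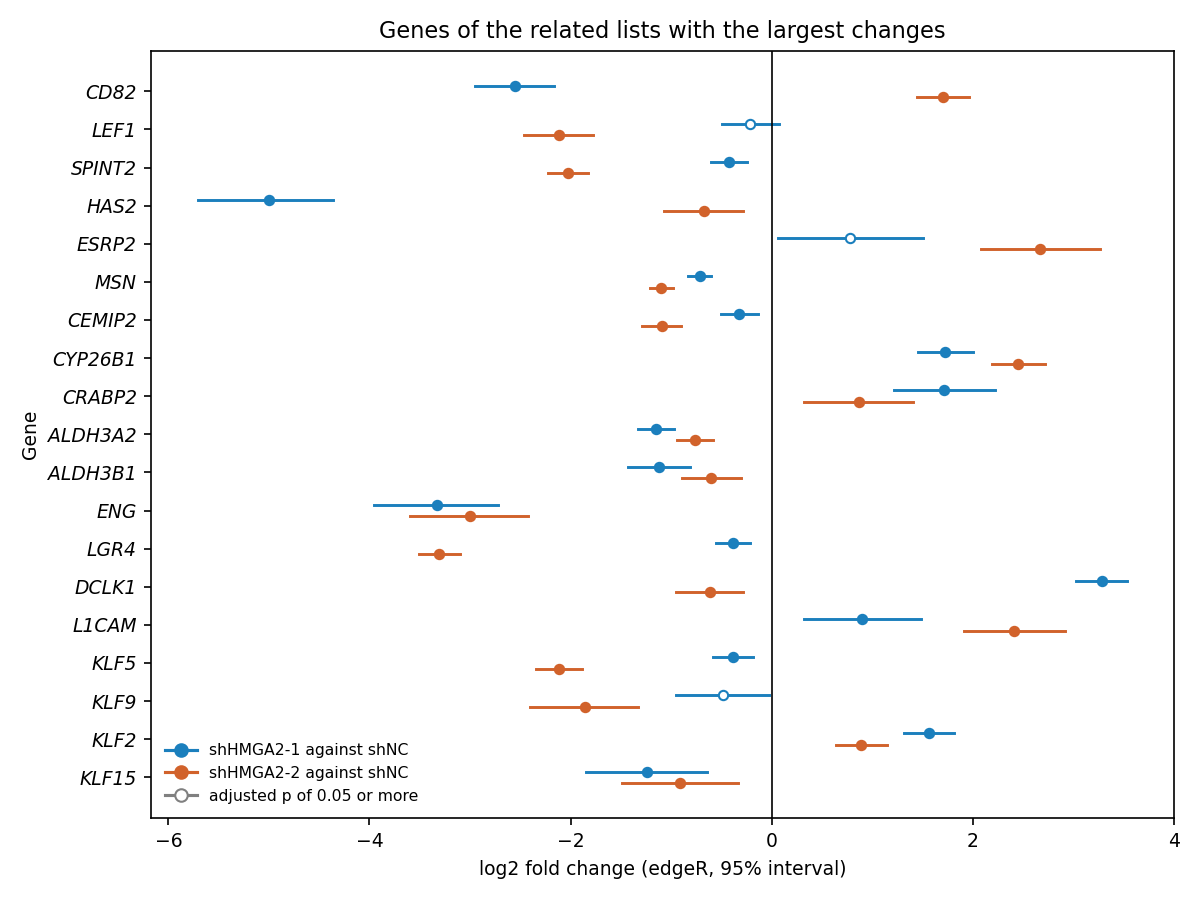
log2 fold changes (x axis, edgeR) with 95% intervals of related-list genes with the largest changes, at most 4 a list, for shHMGA2-1 (blue) and shHMGA2-2 (orange) against shNC; filled points had an adjusted p under 0.05 and open points did not. CD82 and DCLK1 lie on opposite sides of 0 in the 2 lines, HAS2 reaches -5.00 in shHMGA2-1, and ENG is at -3.33 in shHMGA2-1.

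Of 25 genes of the ALDH1 family and retinoic acid pathway, 17 were tested. In shHMGA2-1 3 were higher and 6 lower, and in shHMGA2-2 6 were higher and 7 lower (medians 0.03 and 0.02). *CYP26B1*, which degrades retinoic acid, rose 1.73 and 2.45 on the log2 scale, and *CRABP2*, which carries it to the nucleus, rose 1.72 and 0.87. The aldehyde dehydrogenase genes *ALDH3A2* and *ALDH3B1* fell by 1.15 and 1.12 in shHMGA2-1 and by 0.76 and 0.60 in shHMGA2-2, against the direction of *ALDH1A3*. *ALDH1B1* lay between 12.95 and 15.73 FPKM and did not pass in either line, and *RDH11*, a retinal reductase, fell by 0.50 in shHMGA2-2.

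Of 21 other markers used for stem-like cells, mostly of the cell surface, 14 were tested. Among those tested were the intracellular markers *BMI1*, *NES* and *DCLK1*. Of the 14, most were lower: 2 higher and 9 lower in shHMGA2-1 (median -0.34), and 1 higher and 12 lower in shHMGA2-2 (median -1.02). *ENG* (endoglin), at 1.90 and 2.07 FPKM in shNC, fell by 3.33 and 3.00 on the log2 scale. *LGR4*, an R-spondin receptor, fell by 0.38 and 3.31, *ITGB1* (integrin beta-1) by 0.23 and 1.47, and *NT5E* (CD73) by 0.29 and 0.85. The adhesion gene *L1CAM* rose 0.90 and 2.41. *DCLK1*, a kinase gene used as a tuft cell marker, rose 3.28 in shHMGA2-1, from 0.64 and 0.57 to 5.50 and 6.77 FPKM, and fell by 0.62 in shHMGA2-2.

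Of 17 other SOX genes, 4 were tested, with 1 higher and 1 lower in shHMGA2-1 and 2 lower in shHMGA2-2 (medians -0.08 and -0.59). *SOX13* fell by 0.32 and 0.97, and *SOX12* by 0.32 in shHMGA2-2. Of 16 other KLF genes, 14 were tested, with 5 higher and 5 lower in shHMGA2-1 and 5 higher and 6 lower in shHMGA2-2 (medians -0.06 and 0.05). *KLF2* rose 1.57 and 0.89 on the log2 scale, *KLF10* rose 1.10 and 0.34 and *KLF15* fell by 1.24 and 0.91. *KLF5*, an epithelial factor, fell by 0.38 and 2.12, and *KLF9* by 1.86 in shHMGA2-2. *KLF6*, the most abundant, stood at 42.97 and 42.19 FPKM in shHMGA2-2, where it fell by 0.31. Of 11 pluripotency factors, 7 had at most 3 counts in every library and 2 were tested; *MYC* rose 0.26 in shHMGA2-2 and had a log2 fold change of -0.02 in shHMGA2-1.

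The marker lists gave the setting of the epithelial antigens. Of 8 epithelial markers, which include *EPCAM*, 4 were tested, and their summed FPKM ranged from 54.7 to 56.4 in shNC, 50.05 to 55.7 in shHMGA2-1 and 66.2 to 70.9 in shHMGA2-2. Among them 1 was higher (*EPCAM*) and 2 lower (*KRT18* and *KRT19*) in shHMGA2-1. In shHMGA2-2 *KRT8* rose 1.25 and *KRT19* fell by 2.46 on the log2 scale. The summed FPKM of 8 mesenchymal markers ranged from 475 to 490 in shNC, 453 to 461 in shHMGA2-1 and 445 to 446 in shHMGA2-2. *VIM* made up most of each sum, which therefore says little about the other markers. Of 6 tested, 0 were higher and 3 lower in shHMGA2-1, and 2 higher and 4 lower in shHMGA2-2. Lower in both lines were *FN1* (log2 fold changes -3.88 and -4.738) and *ZEB1* (-0.3 and -1.498). *S100A4* was lower in shHMGA2-1 (-2.592) and higher in shHMGA2-2 (1.153). The other calls, all in shHMGA2-2, were *SNAI2* (2.06), *ZEB2* (-1.284) and *VIM* (-0.167). The sum of 4 luminal markers, mostly *KRT18* and *XBP1*, lay between 52.0 and 63.9 in all lines, with 0 higher and 2 lower in shHMGA2-1 and 1 higher and 2 lower in shHMGA2-2. In shHMGA2-2 the luminal factor gene *GATA3* rose 2.47 on the log2 scale (edgeR adjusted p = 3.96e-11). *FOXA1* was lower there (adjusted p = 7.82e-11), at 0.07 and 0.01 FPKM against 1.47 and 1.25 in the controls. The sum of 5 basal markers was 189 to 192 in shNC, 121 to 134 in shHMGA2-1 and 197 to 201 in shHMGA2-2, and *CAV1* made up most of it. The basal keratin gene *KRT5* was at 0 FPKM in every library, and *KRT14* and *KRT17* did not exceed 0.05 and 0.19. Of the 2 tested, *CAV1* and *EGFR*, both were lower in shHMGA2-1. In shHMGA2-2 *EGFR* fell by 1.54 on the log2 scale, and *CAV1* had a log2 fold change of 0.13 (adjusted p = 0.0796). Their part in the member differences was not tested.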

How the data were processed

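RNA of 6 MDA-MB-231 libraries, 2 per line, was compared, with lines and replicates assigned by title. Control library names say wild type, shHMGA2-1 names carry SH2, and shHMGA2-2 names follow another scheme without a hairpin. The titles were followed. The authors deposited 1 table of raw counts and FPKM values per gene and library. The counts are whole numbers without normalization, and the submitters' processing notes name HISAT2 2.2.1, HTSeq 0.6.1 and GRCh38.p13, without the strand setting. The deposited FPKM scale each count by the exonic length of its gene and the total of its library, a calculation that returned 100% of the values. The members were matched by symbol. The members and gene lists were chosen with earlier results of these data known.

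Counts were fitted in edgeR 4.0.16 (R 4.3.3) with TMM scaling, filterByExpr and a quasi-likelihood test with the 3 lines as groups. A second fit set both shHMGA2 lines against shNC as 1 group, and p-values were adjusted over 16110 genes. The study's methods name DESeq2, whose 1.42.0 version was run as an alternative, since edgeR is the fixed main test for counts. Other alternatives were upper quartile scaling, no filter on low counts, genes of mean FPKM of at least 1, a replicate block, each library left out, limma 3.58.1 on log2(FPKM + 1) and log2(FPKM + 0.1), and, for the pooled comparison, the mean of the line contrasts. The fitting steps were tested on simulated data. Replicates of a line differed by more than sampling noise and were kept as separate libraries. Chi-square per degree of freedom was 2.03 in shNC, 6.21 in shHMGA2-1 and 2.91 in shHMGA2-2. The main fit shared 1 estimate of the spread over the 3 lines, so it may understate the spread of shHMGA2-1.

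Named genes were all members, *HMGA2*, at most 4 DEGs a list by absolute log2 fold change among genes of mean FPKM of at least 0.5, the 2 genes of a list with the highest mean FPKM, and the 2 nearest patterns per member. A gene that this rule names is not reported here. Marker genes of the cell type check were named from their fixed lists, and antisense genes for overlap. Sample columns left unused numbered 0. Libraries held 16461178 to 17167293 counts, and a floor of 3 counts covers counting error only. Promoter windows came from RefSeq for 7 of the 9 members.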

Additional observations from a re-analysis of the deposited data

Results flagged for a closer look

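In the direct edgeR contrast of shHMGA2-2 with shHMGA2-1, 7 of 8 tested members differed between the knockdown lines, which is what put them here. The log2 fold changes were 2.82 for *SOX9* and 1.16 for *MUC1*, higher in shHMGA2-2, and -2.13 for *SOX4*, -2.07 for *CD24*, -1.35 for *ALDH1A3* and -1.10 for *EPCAM*, lower there. These 6 kept their direction and an adjusted p under 0.05 in each of the 13 alternatives run for this contrast. *CD44* differed by 0.16, and that call was lost in 5 of them. A hairpin and its clone cannot be told apart in this design.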

How the results depend on the processing

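Most member values in the direct comparisons of the lines kept both their direction and their side of the threshold: of 104 values per comparison, 97 did in shHMGA2-1 against shNC, 99 in shHMGA2-2 against shNC and 95 between the shHMGA2 lines. Signs turned for *EPCAM* in shHMGA2-2 against shNC (0.019 with upper quartile scaling and log2(FPKM + 1), 0.024 with log2(FPKM + 0.1)) and for *SOX4* in the pooled comparison (0.056 and 0.015 without shHMGA2-2 replicate 1 or 2, within a range of -0.666 to 0.056 over the left-out libraries), none past the test. With log2(FPKM + 1), which shrinks low genes, member DEGs numbered 1 in shHMGA2-1 and 3 between the shHMGA2 lines, and all DEGs 294, 1226, 785 and 192 (shHMGA2-1, shHMGA2-2, between them, pooled) in place of 1367, 3432, 2432 and 498. With genes of mean FPKM of at least 1, where fewer were tested, they numbered 579, 1729, 1168 and 291. In the pooled comparison (848 genes past the test), the mean of the line contrasts gave 7 members past the test, 2 member DEGs, 8016 genes and 2102 DEGs, and DESeq2 gave 2 members, both DEGs, 1982 genes and 1025 DEGs. Upper quartile scaling moved the share of higher calls from 47.2% to 58.8% in shHMGA2-1 and from 50.3% to 59.9% in shHMGA2-2. The share went from 48.8% to 54.2% between the shHMGA2 lines and from 44.5% to 55.7% in the pooled comparison.

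Replicate numbers are shared by the lines. Same-numbered libraries did not deviate together over the tested genes (correlations -0.10 to 0.0021). With 1 replicate difference per line, this cannot tell whether same-numbered libraries were prepared together. The replicate block left 8, 6 and 6 members past the test in the 3 direct comparisons and, pooled, 0 members, 152 genes and 138 DEGs. *CD44* between the shHMGA2 lines was the 1 member call it changed.

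Leaving out single libraries gave 6 to 8 members and 3 to 4 member DEGs, 3284 to 5794 genes and 1170 to 1382 DEGs in shHMGA2-1. In shHMGA2-2 it gave 5 to 6 members and 3 member DEGs, 7709 to 10141 genes and 3105 to 3488 DEGs, and between the lines 6 to 7 members and 6 member DEGs, 6226 to 7974 genes and 2150 to 2438 DEGs. Without shNC replicate 1 or 2, shHMGA2-1 had 3432 or 3284 genes past the test. Pooled, it gave 0 members, 4 to 822 genes and 4 to 480 DEGs: 4 without either shNC library, 466 without shHMGA2-1 replicate 1, and 315 and 356 genes without shHMGA2-2 replicate 1 or 2. The cause was not tested. Depth limits *PROM1*, *MUC1*, *ALDH1A3*, *SOX4* and *CD24*, whose lowest library counts were 0, 16, 33, 48 and 54.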
